A study of Mus musculus with 10 samples.

Results

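*Ddit3*, *Ddit4*, *Trib3*, *Chac1*, *Asns*, *Atf3*, *Sesn2*, *Psat1*, *Phgdh* and *Slc7a11* are genes of the amino acid and stress response that the transcription factor ATF4 drives. They were taken as a set by their known role, but with earlier results of these data known. They are 10 of the 20325 genes in the table of RNA-Seq counts. All 10 passed the filter on low values and were among the 13201 genes tested. PolyA RNA of 5 mouse embryonic stem cell (mESC) lines was sequenced, from biological duplicates. *Daxx*-/- mESCs are labelled as lacking DAXX, a histone chaperone of the histone variant H3.3, and *Daxx*-/-;WT mESCs are the same cells with a transgene of WT DAXX. H3.3 KO mESCs are labelled as lacking H3.3, and H3.3 KO;WT mESCs carry a WT H3.3 transgene in addition. H3.3 KO;L126A-L130A mESCs carry instead a mutant that the labels name so, while the study mostly writes L126A-I130A. The spelling of the labels is kept here. In the study this mutant binds DAXX without being incorporated into nucleosomes.

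The *Daxx* lines are of strain 129/SvEv and the H3.3 lines of a 129 x C57BL/6J background, so strain and line cannot be told apart. Each knockout is represented by a single line, and no parental WT line is among the samples. Transgenes were delivered by lentivirus from a vector with an EF1 promoter, under puromycin selection; whether the KO lines carried an empty vector is not given in the sources used here. All lines were grown without feeders on gelatin in medium with LIF and the inhibitors CHIR99021 at 3 µM and PD0325901 at 1 µM (2i), which contained added glutamine and non-essential amino acids.

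ATF4 is the effector of the integrated stress response. Kinases that sense amino acid shortage, unfolded protein in the endoplasmic reticulum, viral RNA or lack of heme phosphorylate the translation factor eIF2α, which lowers protein synthesis while translation of the *Atf4* mRNA rises. ATF4, often with a partner of the CEBP family, then binds composite CEBP-ATF elements and switches on genes for amino acid synthesis and uptake, for the control of mTORC1, and, when stress lasts, for cell death. Because ATF4 is controlled in large part at translation, its mRNA level is an incomplete measure of its activity.

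The core of the CEBP-ATF element was searched for in the promoters of the set, since the genes are grouped by this shared regulator. The motif searched was TGATGNAA on both strands, where N is any base, within 250 bases before to 50 bases after each RefSeq start site (GRCm38.p6). It was found in 5 of the 10 genes (50.0%), and in 563 (3.93%) of the 14315 genes of the table that have such a window. The stretches around the matches are printed 5′ to 3′ on the strand of the gene, and capitals mark the match, which reads TTNCATCA where it lies on the opposite strand.
*Asns*, chr6:7693210-7693278, minus strand, match starting 23 bases before the start site: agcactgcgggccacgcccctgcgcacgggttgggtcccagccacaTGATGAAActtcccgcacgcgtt
*Chac1*, chr2:119351003-119351102, plus strand, match starting 193 bases before the start site: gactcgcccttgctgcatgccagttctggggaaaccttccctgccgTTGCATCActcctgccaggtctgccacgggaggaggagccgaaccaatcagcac
*Atf3*, chr1:191183390-191183489, minus strand, match starting 110 bases before the start site: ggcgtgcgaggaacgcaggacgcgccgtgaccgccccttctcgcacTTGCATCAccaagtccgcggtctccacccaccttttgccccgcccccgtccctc
*Slc7a11*, chr3:50443614-50443725, minus strand, matches starting 66 and 47 bases before the start site: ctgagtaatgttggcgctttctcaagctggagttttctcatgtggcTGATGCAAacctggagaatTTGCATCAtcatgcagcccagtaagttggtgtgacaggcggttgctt
*Trib3*, chr2:152344028-152344057, minus strand, match starting 15 bases after the start site: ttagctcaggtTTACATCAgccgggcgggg
*Slc7a11* is the gene of the set with 2 matches, which lie on opposite strands. The windows of *Ddit3*, *Ddit4*, *Sesn2*, *Psat1* and *Phgdh* hold no such letters, and neither does that of *Atf4*. Those of *Psat1* lie inside the gene as GENCODE gives it, and its start further upstream was not searched. A match is a description of the sequence and not evidence of a bound site.

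Levels are given as scaled CPM, which is the RSEM expected count relative to the library's total after median-of-ratios scaling. Library totals lay between 15463625 and 21396585 expected counts. *Daxx* was at 72.9 to 82.5 CPM in *Daxx*-/- mESCs and at 206 CPM in both libraries with the transgene, and at 59.3 to 101 CPM in the 6 H3.3 libraries, a range that holds both libraries of the line labelled *Daxx*-/-. Of the H3.3 genes, *H3f3a* was at 2.84 to 10.9 CPM in the 6 H3.3 libraries against 381 to 494 CPM in the 4 *Daxx* libraries, while *H3f3b* was at 509 to 720 CPM in H3.3 KO, 139 to 204 CPM in H3.3 KO;WT and 324 to 386 CPM in the mutant line, against 84.3 to 380 CPM in the *Daxx* libraries. The mRNA of *Daxx* and *H3f3b* thus does not check these labels, and which part of each gene was disrupted is not given in the sources used here. Of 9 mESC markers, 8 are in the table, and their summed level was 5815 to 8676 CPM over all libraries. The summed level of 7 fibroblast markers was 4.38 to 40.9 CPM, of which *Daxx*-/- mESCs had 27.7 to 40.9 CPM, *Daxx*-/-;WT mESCs 12.4 to 17.3 CPM and the 6 H3.3 libraries at most 11.2 CPM. In each of these *Daxx* lines 1 of the 7 was at 0 in both libraries. The 7 primitive endoderm markers summed to 8.09 to 22.8 CPM in *Daxx*-/- mESCs and 5.70 to 8.36 CPM in *Daxx*-/-;WT mESCs, and 6 mesoderm or neural markers to 81.9 to 164 CPM and 130 to 256 CPM. The part of these differences in the results was not tested. In bulk RNA a lower level can mean fewer cells that express a gene or less RNA per cell, and these cannot be told apart.

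Levels were divided by the length of each gene's longest coding transcript in the GENCODE annotation, which need not be the one expressed. Per kilobase of it, the enzymes of amino acid synthesis had the highest levels of the set and the cystine transporter the lowest. The median over the 10 libraries was 510 CPM per kilobase for *Asns*, 248 for *Psat1* and 129 for *Phgdh*. *Ddit4* had a median of 65.5 and *Sesn2* of 33.7 CPM per kilobase. *Trib3*, *Chac1* and *Ddit3* had medians of 22.7, 18.3 and 16.3 CPM per kilobase, and their ranges over the libraries overlapped. *Atf3* and *Slc7a11* were lowest, at 5.80 and 3.91 CPM per kilobase, and *Atf4* itself had a median of 244. The transcript taken for *Slc7a11* has 9223 bases. Before division by length its median was 36.1 CPM, above those of *Chac1* (30.0), *Ddit3* (14.5) and *Atf3* (11.5). The genes differed as much in how far they varied. The highest library exceeded the lowest 20.04-fold for *Ddit3*, 16.8-fold for *Atf3*, 9.13-fold for *Ddit4* and 8.71-fold for *Chac1*, but 1.89-fold for *Asns* and 1.49-fold for *Sesn2*.

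**Figure D1:**
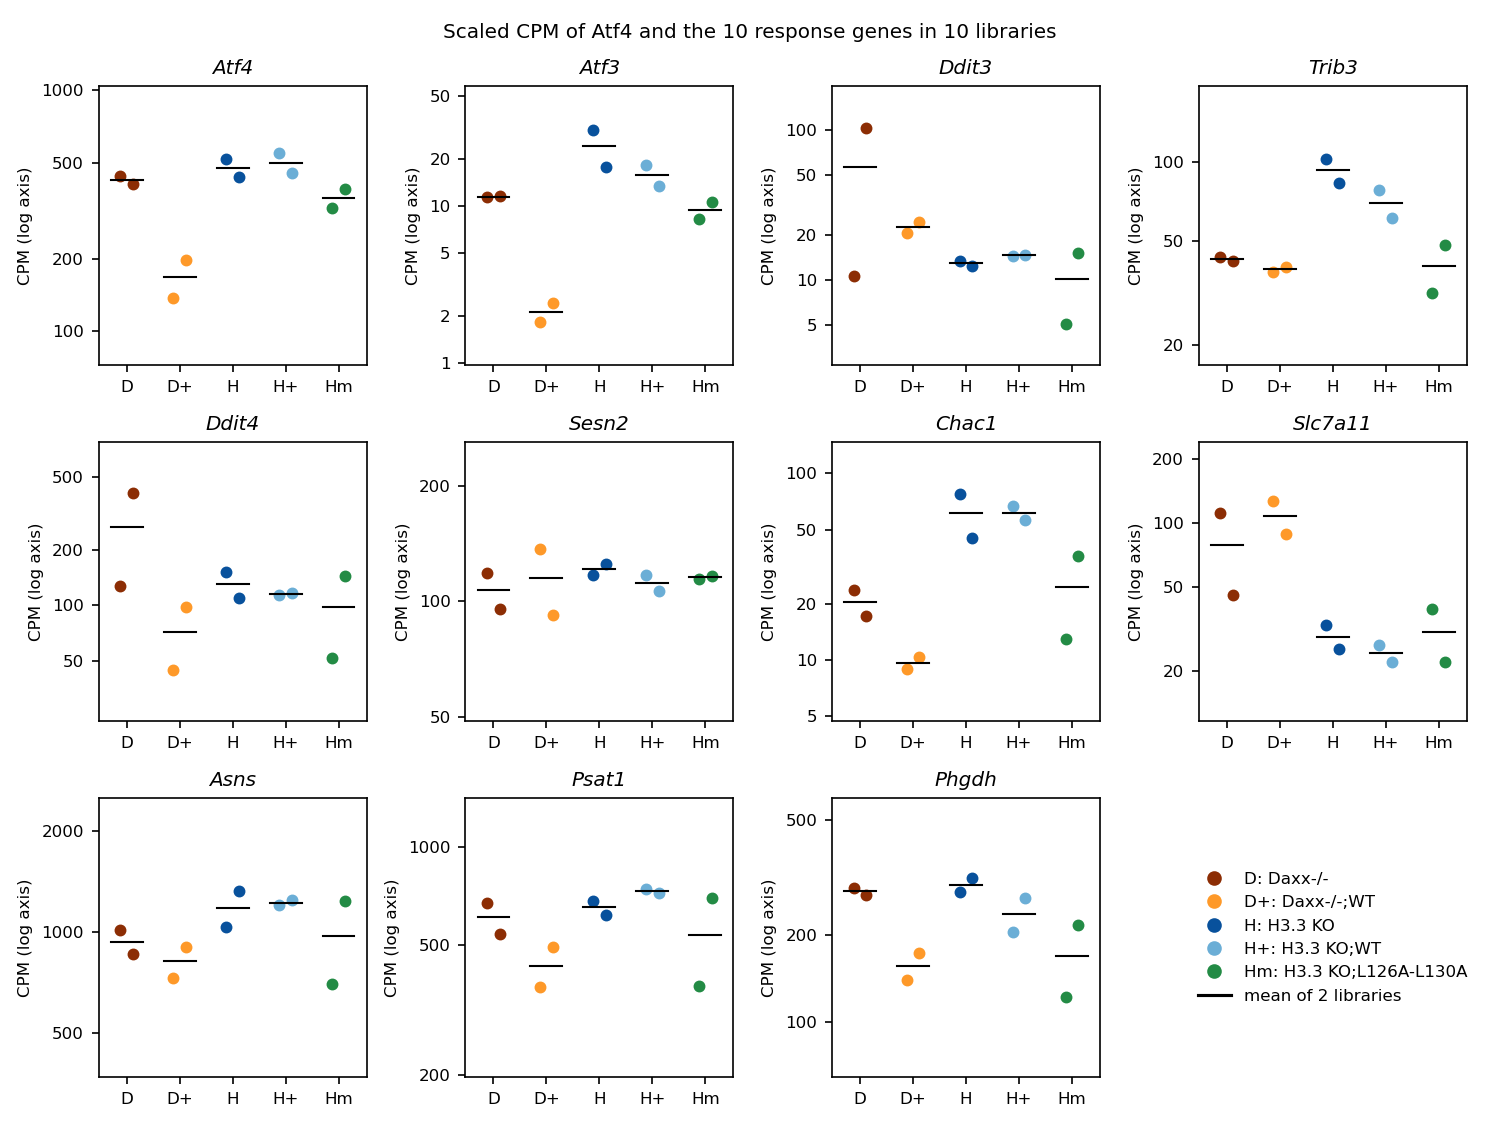
Scaled CPM (log axis) of *Atf4* and the 10 response genes in the 2 libraries of each of 5 mESC lines, with the mean of each line as a bar. *Atf3* and *Atf4* are lower in both *Daxx*-/-;WT libraries than in every other library, *Ddit3* stands at 103 CPM in 1 *Daxx*-/- library and at 5.12 to 24.2 CPM in the other 9, and *Slc7a11* is higher in all 4 *Daxx* libraries than in the 6 H3.3 libraries.

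The first question was whether returning the missing protein changed these genes. A gene was called at a Benjamini-Hochberg adjusted p under 0.05 by edgeR's quasi-likelihood test and a change of at least 2-fold. After DAXX rescue, 1 of the 10 genes fell (*Atf3*) and none rose, beside 1.08% of all genes tested called in either direction and 0.795% called lower. After rescue with WT H3.3, 0 of the 10 were called, beside 0.25% of all genes. There 0 had an unadjusted p under 0.05, beside 13.3% of all genes, and DESeq2 also called 0. With only the 4 libraries of the comparison fitted, 3 had an unadjusted p under 0.05 and 0 were called. After rescue with the L126A-L130A mutant, 1 of the 10 fell (*Trib3*), beside 0.788% of all genes called and 0.606% called lower. Directly between the mutant and the WT H3.3 line, 0 of the 10 were called by edgeR or by DESeq2, beside 0.515% of all genes. In that comparison 3 had an unadjusted p under 0.05 (*Trib3*, *Chac1* and *Atf3*), all lower with the mutant, against 12.3% of all genes and 6.4% in that direction.

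Below the threshold of a call, more of the set lay lower than higher after rescue with DAXX and with the mutant. The log2 fold change was below 0 for 8 of the 10 genes after DAXX rescue, with a median of -0.68 against -0.02 over all genes tested, and 52% of all genes were below 0. Unadjusted p was under 0.05 for 4 of the 10, all lower, against 21.8% of all genes and 12.4% of all genes in that direction. For the mutant, 9 of the 10 were below 0, with a median of -0.38 against 0.03, and 46.8% of all genes were below 0. Again 4 had an unadjusted p under 0.05, all lower, against 16.9% of all genes and 10.3% in that direction. For WT H3.3, 6 of the 10 were below 0, and the median was -0.15 against 0.02. These comparisons with the WT and the mutant histone use the same H3.3 KO libraries and are not independent of each other.

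The share of genes whose 2 libraries did not overlap with the 2 of the other line was large in every comparison. After DAXX rescue, both libraries were below both of the KO line for 6 of the 10 genes, beside 24.7% of all genes (46.5% in either direction). For the mutant rescue this held for 5 of the 10, beside 24.2% (50.1% in either direction). For WT H3.3 it held for 3 of the 10 lower, beside 26.7%, and for 5 of the 10 in either direction, beside 56%, shares near those of all genes.

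**Figure D2:**
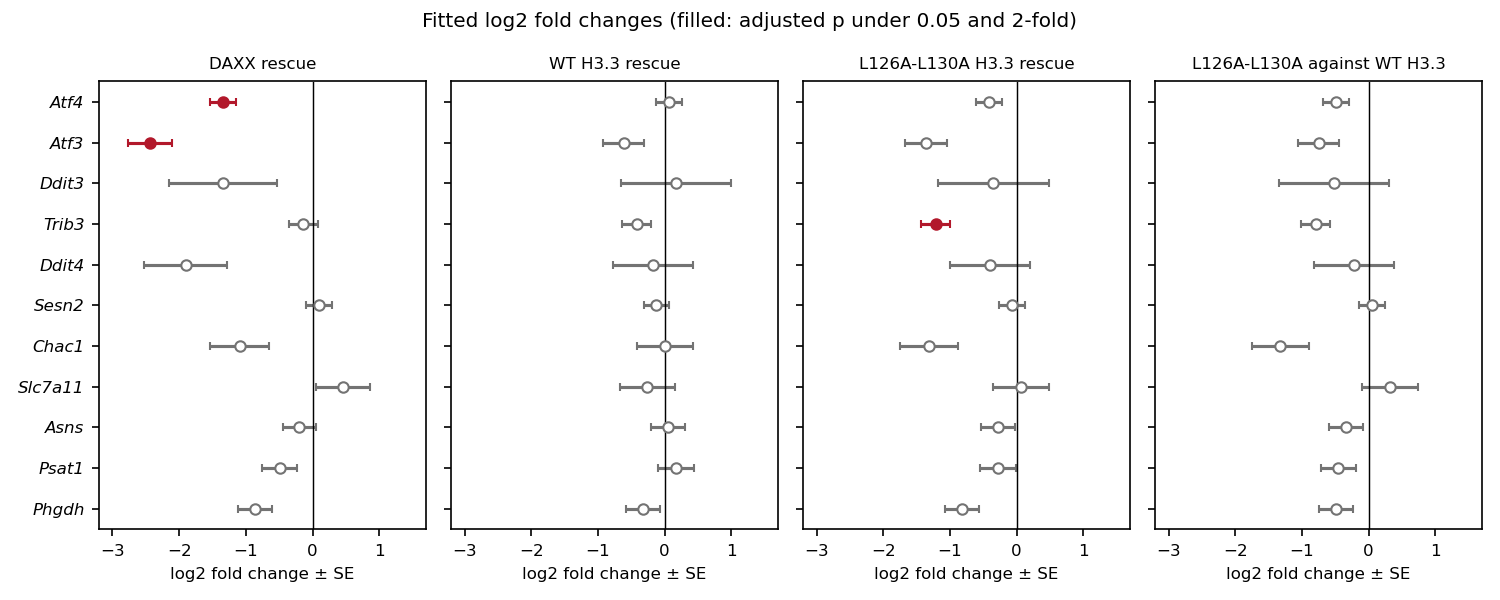
log2 fold changes with standard errors from edgeR for *Atf4* and the 10 response genes in the 3 rescue comparisons and in the mutant against the WT H3.3 line, filled in red where called. After DAXX rescue *Atf3* lies at -2.44 and *Atf4* at -1.34, after WT H3.3 rescue the 10 genes lie between -0.61 and 0.17, and after L126A-L130A rescue *Trib3* lies at -1.21.

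*Atf4* (chromosome 15, 80255184 to 80257541, plus strand; this and the positions that follow are from the GENCODE annotation of GRCm38), the regulator of the set and not one of the 10, is given first. It was measured at 440 and 407 CPM in *Daxx*-/- mESCs and at 137 and 197 CPM in *Daxx*-/-;WT mESCs. Both libraries with DAXX were below all 8 other libraries. The level of *Atf4* fell with DAXX, by 1.34 on the log2 scale (SE 0.199, edgeR adjusted p = 0.0266). H3.3 KO mESCs had 519 and 435 CPM, H3.3 KO;WT mESCs 547 and 455 CPM and H3.3 KO;L126A-L130A mESCs 326 and 389 CPM. The 3 H3.3 lines lay above the DAXX-rescued line, and *Atf4* had a log2 fold change of 0.07 with WT H3.3 (SE 0.196, edgeR adjusted p = 0.919) and -0.42 with the mutant (SE 0.196, edgeR adjusted p = 0.326). The call with DAXX was lost when only the 4 *Daxx* libraries were fitted (edgeR adjusted p = 0.16), and when either *Daxx*-/-;WT library, either H3.3 KO;WT library or *Daxx*-/- replicate 2 was left out (0.0522 to 0.235). Over all 10 fits without 1 library its log2 fold change ranged from -1.63 to -1.10.

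The 4 kinases that phosphorylate eIF2α were not called in any rescue comparison. *Eif2ak3*, which encodes the endoplasmic reticulum kinase PERK, had 30.0 and 36.4 CPM in H3.3 KO mESCs and 17.3 and 20.9 CPM with the mutant, a log2 fold change of -0.80 (SE 0.177, edgeR adjusted p = 0.0706). *Eif2ak4*, the amino acid sensor GCN2, had 37.2 to 60.0 CPM over all 10 libraries. After DAXX rescue the log2 fold changes of the kinases, with *Eif2ak1* (HRI) and *Eif2ak2* (PKR), lay between -0.10 and 0.34. Between the H3.3 and the *Daxx* lines, which differ in strain too, none reached 2-fold. There *Eif2ak2* had 0.705 (edgeR adjusted p = 0.00118), *Eif2ak4* 0.385 (0.0076), *Eif2ak3* -0.739 (0.00113) and *Eif2ak1* -0.262 (0.218).

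*Atf3* (chromosome 1, 191170296 to 191218039, minus strand) encodes a transcription factor of the same family that is induced by many stresses. Its RefSeq promoter window lies inside the GENCODE gene, which has a start further upstream. *Daxx*-/- mESCs had 11.5 CPM in each library, from 207 and 208 expected counts, and *Daxx*-/-;WT mESCs had 1.83 and 2.41 CPM, from 37 and 43 expected counts. The 2 libraries with DAXX were the lowest of all 10. *Atf3* fell 5.42-fold, a log2 fold change of -2.44 (SE 0.337, edgeR adjusted p = 0.0238). *Atf3* was called in 6 of 7 alternative settings, of which that without a fold threshold reuses the same fit and could not lose it. Its adjusted p in these settings ranged from 3.75e-08 (DESeq2) to 0.15 (edgeR, only the 4 *Daxx* libraries fitted). It was not called without *Daxx*-/-;WT replicate 1 (log2 fold change -2.25, adjusted p = 0.235), *Daxx*-/-;WT replicate 2 (-2.65, 0.0799), H3.3 KO;WT replicate 1 (-2.44, 0.0585) or H3.3 KO;WT replicate 2 (-2.44, 0.057).

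In the H3.3 lines *Atf3* was above the level of the DAXX-rescued line throughout. H3.3 KO mESCs had 30.7 and 17.8 CPM, H3.3 KO;WT mESCs 18.3 and 13.5 CPM, and H3.3 KO;L126A-L130A mESCs 8.22 and 10.6 CPM. Both mutant libraries were below the other 4 H3.3 libraries, while the WT and KO libraries overlapped. Against the KO line *Atf3* had a log2 fold change of -1.36 with the mutant (SE 0.312, edgeR adjusted p = 0.0759), which DESeq2 called (adjusted p = 0.00376), and of -0.61 with WT H3.3 (SE 0.305, edgeR adjusted p = 0.439). Whether *Atf3* answered differently to DAXX than to WT H3.3 was tested as an interaction, for which 0 of the 10 genes were called by edgeR, beside 0.0455% of all genes. An unadjusted p under 0.05 was found for 1 of them, *Atf3*, beside 13.9% of all genes. Its log2 fold changes differed by -1.83 (SE 0.449, edgeR adjusted p = 0.196), and *Atf3* was the 1 gene of the set that DESeq2 called.

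*Ddit3* (chromosome 10, 127290829 to 127293753, plus strand) encodes CHOP, a transcription factor linked to cell death under lasting stress. A single library set its range. *Daxx*-/- replicate 1 had 10.5 CPM and replicate 2 had 103 CPM, from 190 and 1851 expected counts. *Daxx*-/-;WT mESCs had 20.6 and 24.2 CPM, which lay between these. The H3.3 KO libraries had 13.4 and 12.4 CPM, the H3.3 KO;WT libraries 14.3 and 14.7 CPM, and the mutant libraries 5.12 and 15.04 CPM. After DAXX rescue *Ddit3* had a log2 fold change of -1.34 with an SE of 0.81 (edgeR adjusted p = 0.359), and -0.35 after the mutant rescue (SE 0.828, edgeR adjusted p = 0.872). The direction of the DAXX comparison depended on the *Daxx*-/- library kept: *Ddit3* was lower with DAXX and called without *Daxx*-/- replicate 1 (-2.20, edgeR adjusted p = 0.024), and stood at 1.08 without *Daxx*-/- replicate 2 (edgeR adjusted p = 0.347).

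*Trib3* (chromosome 2, 152337422 to 152344032, minus strand) encodes a pseudokinase that is induced by ATF4 and CHOP and feeds back on ATF4 activity. The *Daxx* lines hardly differed, with 43.6 and 42.0 CPM without DAXX and 37.9 and 39.8 CPM with it (log2 fold change -0.14, SE 0.216). H3.3 KO mESCs had 103 and 83.2 CPM, and H3.3 KO;WT mESCs 78.0 and 61.3 CPM. The mutant line had 31.7 and 48.4 CPM, below the other 4 H3.3 libraries. *Trib3* fell 2.32-fold with the mutant, a log2 fold change of -1.21 (SE 0.218, edgeR adjusted p = 0.0421), while the change with WT H3.3 was -0.42 (SE 0.214, edgeR adjusted p = 0.451). The difference between the mutant and the WT line was -0.80 (SE 0.217, edgeR adjusted p = 0.162). DESeq2 gave this difference an adjusted p of 0.0345, at under 2-fold. The call in the mutant held in 6 of 7 alternative settings, of which that without a fold threshold could not lose it. It was lost with only the libraries of the comparison (edgeR adjusted p = 0.078). With 1 library left out it held in 3 of 10 fits, those without *Daxx*-/- replicate 1, *Daxx*-/- replicate 2 or mutant replicate 2, and the other 7 gave adjusted p of 0.0747 to 0.254. The log2 fold change was -1.55 without mutant replicate 2 and -0.94 without mutant replicate 1.

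*Ddit4* and *Sesn2* encode REDD1 and Sestrin 2, inhibitors of mTORC1. *Ddit4* (chromosome 10, 59949669 to 59951834, minus strand) was at 127 and 405 CPM in *Daxx*-/- mESCs and at 44.4 and 97.9 CPM with DAXX. Both rescued libraries were below both KO libraries, but the KO libraries themselves differed 3.20-fold. For *Ddit4* the log2 fold change was -1.90 (SE 0.617, edgeR adjusted p = 0.132). It was -0.84 without *Daxx*-/- replicate 2 and -2.51 without *Daxx*-/- replicate 1, which was called. H3.3 KO mESCs had 151 and 109 CPM, H3.3 KO;WT mESCs 114 and 116 CPM and the mutant line 51.8 and 145 CPM. Of the mutant libraries, replicate 1 lay below both KO libraries and replicate 2 between them, and the log2 fold change was -0.40 (SE 0.599, edgeR adjusted p = 0.778).

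*Sesn2* (chromosome 4, 132492032 to 132510501, minus strand) varied least. It was at 119 and 95.4 CPM in *Daxx*-/-, 138 and 92.2 CPM in *Daxx*-/-;WT, 117 and 125.6 CPM in H3.3 KO, 117 and 106 CPM in H3.3 KO;WT and 115 and 117 CPM in H3.3 KO;L126A-L130A mESCs. The *Daxx* lines overlapped. Both H3.3 KO libraries were above those of the rescued H3.3 lines, by little: the largest log2 fold change of a rescue in size was -0.12 (SE 0.194), with WT H3.3.

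*Chac1* and *Slc7a11* act on glutathione, CHAC1 by degrading it and the cystine-glutamate exchanger SLC7A11 (xCT) by importing cystine for its synthesis. *Chac1* (chromosome 2, 119351229 to 119354381, plus strand) had 23.9 and 17.1 CPM in *Daxx*-/- and 8.91 and 10.4 CPM in *Daxx*-/-;WT mESCs, which did not overlap. The log2 fold change of -1.09 (SE 0.442) did not pass adjustment (edgeR adjusted p = 0.198). H3.3 KO mESCs had 77.6 and 45.1 CPM, H3.3 KO;WT mESCs 66.9 and 56.7 CPM and the mutant line 13.01 and 36.2 CPM. Both mutant libraries were below the other 4, but they differed 2.78-fold from each other. Against H3.3 KO the log2 fold change of *Chac1* was -1.32 (SE 0.429, edgeR adjusted p = 0.174), and DESeq2 called it (adjusted p = 0.039). It was -2.24 and called without mutant replicate 2 (edgeR adjusted p = 0.0404), and -0.76 without mutant replicate 1 (0.511). With WT H3.3 *Chac1* was at 0.01 on this scale (SE 0.419).

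*Slc7a11* (chromosome 3, 49892526 to 50443614, minus strand) was the gene of the set with the largest log2 fold change above 0 after DAXX rescue. It had 112 and 45.9 CPM in *Daxx*-/- and 127 and 88.8 CPM in *Daxx*-/-;WT mESCs, and the lines overlapped (log2 fold change 0.45, SE 0.406). The 6 H3.3 libraries had 21.99 to 39.3 CPM with a median of 26.1 CPM, all below the 4 *Daxx* libraries. Within the H3.3 lines the log2 fold changes were -0.26 with WT H3.3 (SE 0.417) and 0.07 with the mutant (SE 0.416).

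*Asns*, *Psat1* and *Phgdh* encode enzymes that make asparagine and serine: asparagine synthetase, phosphoserine aminotransferase and phosphoglycerate dehydrogenase, the first enzyme of serine synthesis. *Phgdh* (chromosome 3, 98313170 to 98339990, minus strand) was at 292 and 276 CPM in *Daxx*-/- and at 140 and 173 CPM in *Daxx*-/-;WT mESCs, a log2 fold change of -0.86 (SE 0.256, edgeR adjusted p = 0.111). The libraries with DAXX did not overlap with those without. By DESeq2 the adjusted p of *Phgdh* was 0.0221 with DAXX and 0.044 with the mutant histone, both at under 2-fold. H3.3 KO mESCs had 282 and 314 CPM, H3.3 KO;WT mESCs 205 and 270 CPM and the mutant line 122 and 217 CPM. Against H3.3 KO the log2 fold change of *Phgdh* was -0.81 with the mutant (SE 0.256, edgeR adjusted p = 0.163), with -1.28 without mutant replicate 2, which was called (0.0456), and -0.46 without mutant replicate 1.

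*Psat1* (chromosome 19, 15904678 to 15947337, minus strand) was at 676 and 541 CPM in *Daxx*-/- and at 373 and 492 CPM in *Daxx*-/-;WT mESCs, which did not overlap (log2 fold change -0.49, SE 0.267, edgeR adjusted p = 0.312). *Asns* (chromosome 6, 7675169 to 7693254, minus strand) was at 1016 and 862 CPM in *Daxx*-/- and at 732 and 906 CPM in *Daxx*-/-;WT mESCs, which overlapped (log2 fold change -0.20, SE 0.252, edgeR adjusted p = 0.672). Their standard errors were larger than those of *Trib3* or *Sesn2*. In the H3.3 lines both genes had 1 low library, mutant replicate 1. *Psat1* had 374 CPM there and 621 to 745 CPM in the other 5 H3.3 libraries, and *Asns* 701 CPM against 1039 to 1325 CPM. Neither gene was called with the mutant, with log2 fold changes of -0.28 for each (SE 0.267 and 0.252).

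The 2 mutant libraries differed in the same direction for nearly the whole set. In H3.3 KO;L126A-L130A mESCs 9 of the 10 genes were higher in replicate 2, all but *Slc7a11*, with a median log2 ratio of 0.83. Over all genes tested the median was 0.01, and 51.1% were higher in replicate 2. *Ddit3* differed 2.94-fold, *Ddit4* 2.80-fold and *Chac1* 2.78-fold, so that 3 of the 10 differed at least 2-fold, beside 12.6% of all genes. *Psat1*, *Phgdh* and *Asns* differed 1.86-fold, 1.78-fold and 1.77-fold, *Trib3* 1.53-fold and *Atf3* 1.29-fold. *Sesn2*, counted among the 9, hardly differed (1.02-fold). *Slc7a11* was 1.79-fold lower in replicate 2, and *Atf4* 1.19-fold higher. With 2 libraries there is no test of this within the line.

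*Ddit3* and *Ddit4* also differed between the libraries of *Daxx*-/- mESCs. Between the *Daxx*-/- libraries 3 of the 10 differed at least 2-fold, beside 16.8% of all genes: *Ddit3* was 9.74-fold and *Ddit4* 3.20-fold higher in replicate 2, and *Slc7a11* 2.45-fold lower. The other 7 genes differed at most 1.39-fold there, and 3 of the 10 were higher in replicate 2. In *Daxx*-/-;WT mESCs *Ddit4* alone differed at least 2-fold, by 2.20-fold, beside 7.7% of all genes. None of the 10 did in H3.3 KO or H3.3 KO;WT mESCs, beside 6.4% and 4.11% of all genes. The median absolute log2 ratio of the set was 0.83 in the mutant line, against 0.30 over all genes, and 0.19 to 0.35 in the other 4 lines, against 0.18 to 0.41.

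**Figure D3:**
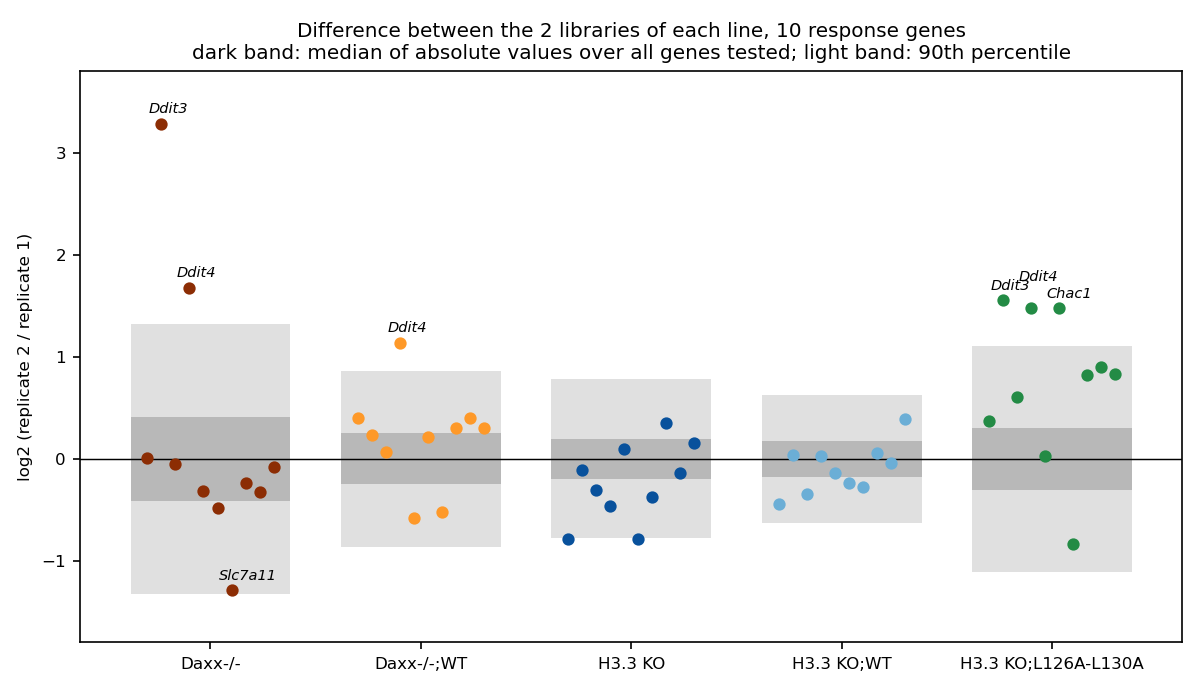
log2 ratio of replicate 2 to replicate 1 within each line, 1 point per response gene, with the median (dark band) and the 90th percentile (light band) of the absolute log2 ratio over all genes tested. In the mutant line 9 of 10 points lie above 0, and in *Daxx*-/- mESCs *Ddit3* lies at 3.29 and *Ddit4* at 1.68 while *Slc7a11* lies at -1.29.

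Averaged over the set after centring each gene, the mean log2 level was lowest in mutant replicate 1 (-0.68) and in the 2 *Daxx*-/-;WT libraries (-0.50 and -0.32). Mutant replicate 2 stood at 0.02, and the *Daxx*-/- libraries at 0.13 and 0.34. The H3.3 KO libraries stood at 0.43 and 0.20 and the H3.3 KO;WT libraries at 0.23 and 0.14. *Phgdh* and *Psat1* followed this mean most closely over the 10 libraries (Pearson r of 0.91 and 0.84), and *Sesn2* and *Slc7a11* least (-0.14 and -0.44). These correlations are descriptions over libraries that share lines, and each gene is part of the mean.

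Among all other genes tested, the 5 whose log2(CPM + 1) followed the mean of the set most closely were *5730455P16Rik* (Pearson r of 0.97 over 10 libraries), *Vldlr* (0.97), *Adm2* (0.95), *Nupr1* (0.94) and *Slc1a4* (0.94). *Nupr1*, which encodes a stress-induced nuclear protein, ranged from 23.0 to 120 CPM. *Vldlr*, a lipoprotein receptor gene, ranged from 2.63 to 27.0 CPM. *Adm2*, a peptide hormone gene, was low throughout, at 0.404 to 4.16 CPM. *Slc1a4* encodes a transporter of neutral amino acids. Like the set, the first 3 were lowest in mutant replicate 1, and *Nupr1* and *Slc1a4* were lowest in *Daxx*-/-;WT replicate 1.

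The wider response was read from lists of regulators, transporters, synthetases, synthesis enzymes and other targets, with all listed genes tested. After DAXX rescue, 3 genes outside the set were called on these lists, all lower. Over all genes tested 1.08% were called and 0.795% called lower. *Atf4* was 1 of 15 regulators, and *Slc1a4* 1 of 10 amino acid transporters. *Slc1a4* had 122 and 137 CPM in *Daxx*-/- and 19.96 and 34.8 CPM in *Daxx*-/-;WT mESCs, without overlap, and fell by 2.24 on the log2 scale (SE 0.435, edgeR adjusted p = 0.0481). *Herpud1*, which acts in the degradation of proteins of the endoplasmic reticulum, was 1 of 14 other ATF4 targets. It had 27.8 and 34.3 CPM without DAXX and 13.2 and 13.9 CPM with it, and fell by 1.20 on the log2 scale (SE 0.214, edgeR adjusted p = 0.0389). Both calls were lost when only the 4 *Daxx* libraries were fitted (adjusted p of 0.125 and 0.189), that of *Slc1a4* also with library size alone as scaling (0.0562), and each was kept in 3 of 10 fits without 1 library, those without *Daxx*-/- replicate 1 or either mutant library.

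Most other genes on these lists were below 0 after DAXX rescue without being called. The median log2 fold change was -0.82 over the 14 other targets, of which 12 were below 0, against -0.02 over all genes tested. It was -0.42 over the 15 genes of serine, one-carbon and amino acid synthesis, of which 14 were below 0, 0 were called and 4 had an unadjusted p under 0.05, beside 21.8% of all genes. *Gpt2*, which makes alanine, had the largest change in size there, with 219 and 196 CPM without and 64.8 and 104 CPM with DAXX (log2 fold change -1.30, SE 0.333, edgeR adjusted p = 0.0801). The median was also -0.42 over the transporters, -0.24 over 20 cytosolic aminoacyl-tRNA synthetases and -0.10 over the regulators. *Gars*, the glycyl-tRNA synthetase gene, had the largest change of the synthetases, -0.65 (SE 0.154, edgeR adjusted p = 0.071).

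With the mutant histone none of the genes on these 5 lists was called. On the list of the ATF6 and XBP1 arms of the unfolded protein response 1 of 15 genes was called, *Xbp1*. Over all genes tested 0.788% were called and 0.606% called lower. *Xbp1*, which encodes the transcription factor of the IRE1 arm, had 69.2 and 94.3 CPM in H3.3 KO and 25.8 and 39.3 CPM in the mutant line, without overlap. It fell by 1.33 on the log2 scale (SE 0.248, edgeR adjusted p = 0.0482). The call of *Xbp1* was lost with library size alone as scaling (adjusted p = 0.0611), with only the libraries of the comparison (0.0755) and in 7 of 10 fits without 1 library (0.0682 to 0.307), all but those without a *Daxx*-/- library or mutant replicate 2. Unadjusted p was under 0.05 for 5 of the 15 regulators, 3 of the 10 transporters, 1 of the 20 synthetases, 5 of the 15 synthesis enzymes and 6 of the 14 other targets, beside 16.9% of all genes. All 10 transporters were below 0 with the mutant, with a median of -0.35 against 0.03 over all genes, and the median was -0.45 over the other targets and -0.34 over the synthesis enzymes. With WT H3.3 none of the listed genes was called, beside 0.25% of all genes tested. There 3, 0, 1, 2 and 2 genes of the 5 lists had an unadjusted p under 0.05, beside 13.3% of all genes. The medians of the 5 lists lay between -0.12 and 0.16.

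**Figure D4:**
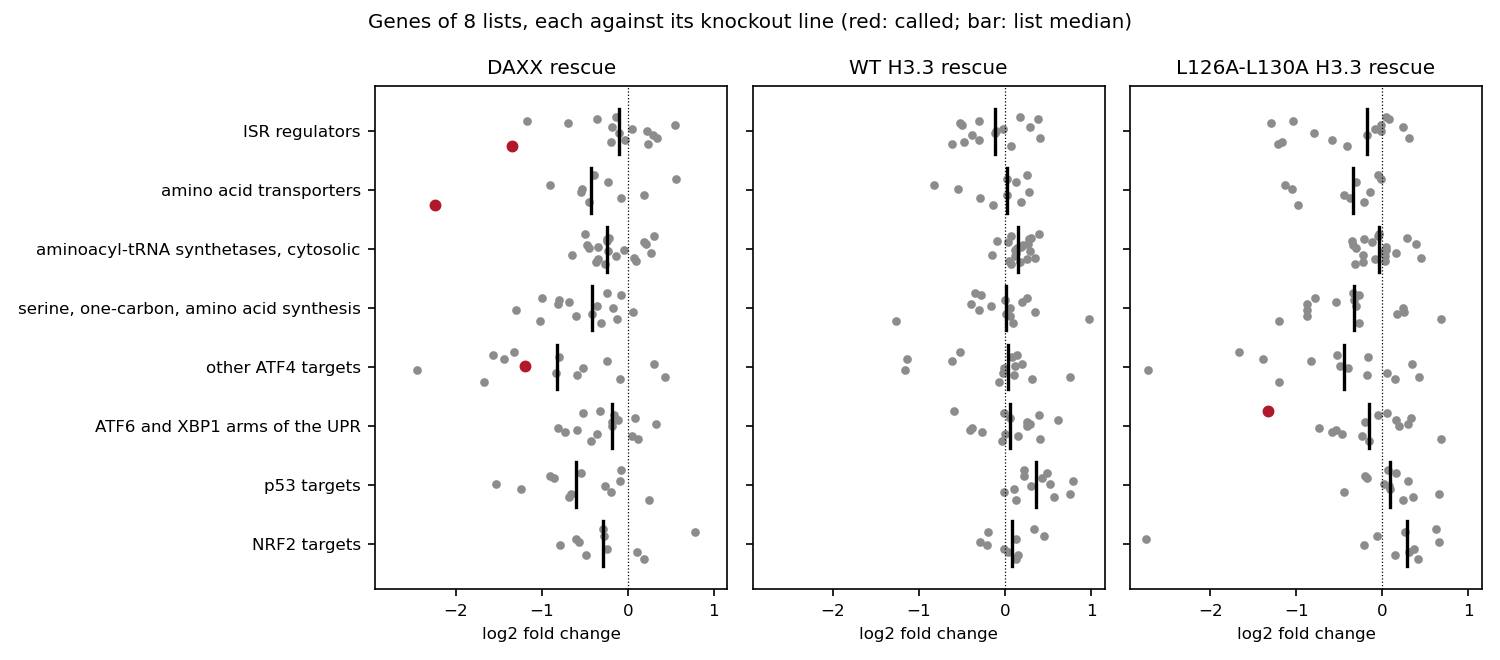
log2 fold change of each gene (points, red where called) of 8 lists in the 3 rescue comparisons, with the median of each list as a bar and 0 as a dotted line. After DAXX rescue the median of the other ATF4 targets lies at -0.82 and that of the p53 targets at -0.60, and after WT H3.3 rescue that of the p53 targets lies at 0.36.

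Lists of neighbouring stress pathways were measured beside these. After DAXX rescue 0 of 15 genes of the ATF6 and XBP1 arms, 0 of 12 p53 targets and 0 of 10 NRF2 targets were called. Over all genes tested 1.08% were called, and the medians of these lists were -0.19, -0.60 and -0.28. An unadjusted p under 0.05 was found for 5, 4 and 4 of them, beside 21.8% of all genes. The p53 target with the largest change was *Perp* (-1.54, SE 0.432, edgeR adjusted p = 0.0996), and 11 of the 12 were below 0. *Hmox1*, the heme oxygenase gene of the NRF2 list, had -0.79 (SE 0.168, edgeR adjusted p = 0.0577). With WT H3.3 the p53 list had a median of 0.36, with 11 of 12 above 0 and 0 called, beside 0.25% of all genes.

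Between the 6 H3.3 libraries and the 4 *Daxx* libraries, which differ in strain as well as in genotype, 4 of the 10 genes were called, 2 higher and 2 lower, beside 12.5% of all genes tested (6.29% higher and 6.2% lower). *Chac1* was higher in the H3.3 lines, at 13.01, 50.9 and 77.6 CPM (lowest, median and highest) against 8.91 to 23.9 CPM, with a log2 fold change of 1.69 (SE 0.293, edgeR adjusted p = 0.00228). *Atf3* was higher as well, at 8.22, 15.6 and 30.7 CPM against 1.83 to 11.5 CPM (1.64, SE 0.215, edgeR adjusted p = 0.00058). For both genes the ranges overlapped through mutant and *Daxx*-/- libraries. For *Atf3* both *Daxx*-/- libraries, at 11.5 CPM each, lay within the H3.3 range and above both mutant libraries (8.22 and 10.6 CPM). The *Daxx*-/-;WT libraries, at 1.83 and 2.41 CPM, lay below that range. For *Chac1* the *Daxx*-/- libraries (23.9 and 17.1 CPM) also lay within the H3.3 range, and the *Daxx*-/-;WT libraries (8.91 and 10.4 CPM) below it. *Slc7a11* was lower, by 1.73 on the log2 scale (SE 0.262, edgeR adjusted p = 0.00118), and was the 1 gene of the set whose libraries did not overlap, beside 22.8% of all genes.

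The call of *Ddit3*, lower in the H3.3 lines (-1.52, SE 0.516, edgeR adjusted p = 0.0425), rested on *Daxx*-/- replicate 2, without which it was -0.31 (adjusted p = 0.424). It was kept in 2 of 10 fits without 1 library, those without *Daxx*-/- replicate 1 or mutant replicate 2, whereas *Chac1*, *Atf3* and *Slc7a11* were called in all 10. On average over the H3.3 lines *Trib3* was higher by less than 2-fold (0.65, SE 0.141, edgeR adjusted p = 0.00669), as was *Atf4* (0.73, SE 0.129, edgeR adjusted p = 0.00257). This did not hold for every line. For *Trib3* the mutant libraries, at 31.7 and 48.4 CPM, lay on both sides of the *Daxx* libraries (37.9 to 43.6 CPM). For *Atf4* the *Daxx*-/- libraries, at 440 and 407 CPM, lay within the range of the H3.3 libraries (326 to 547 CPM). The *Daxx*-/-;WT libraries, at 137 and 197 CPM, lay below it. *Asns*, *Psat1*, *Phgdh*, *Ddit4* and *Sesn2* had log2 fold changes between -0.28 and 0.36 and were not called.

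On the wider lists the calls also went in both directions, beside 12.5% of all genes tested called (6.29% higher and 6.2% lower). Called higher were 1 of 15 regulators, 1 of 10 transporters, 1 of 15 synthesis enzymes and 1 of 14 other targets. So was 1 of 15 genes of the ATF6 and XBP1 arms. Called lower were 1 of the 15 synthesis enzymes, 3 of 10 NRF2 targets and 2 of 12 p53 targets. None of the 20 synthetases was called, but 17 of them were above 0, with a median of 0.35. Over all genes tested the median was -0.01, and 50.7% were below 0. In the H3.3 lines the calls were higher for the regulator *Jdp2* (1.602), the neutral amino acid transporter *Slc1a5* (1.38), the mitochondrial phosphoenolpyruvate carboxykinase *Pck2* (1.87), the oxidoreductase *Ero1l* (1.02) and the co-chaperone *Dnajc3* (1.81), with edgeR adjusted p from 0.000216 to 0.00294. *Ero1l* was called in 5 of 10 fits without 1 library and lay under 2-fold (0.86 to 0.99) without *Daxx*-/- replicate 1, *Daxx*-/-;WT replicate 1, H3.3 KO replicate 1, H3.3 KO;WT replicate 1 or mutant replicate 2. *Pck2* had 166 to 201 CPM in the H3.3 KO and H3.3 KO;WT libraries, 72.8 and 159 CPM in the mutant line and 24.8 to 55.0 CPM in the *Daxx* lines. *Cbs*, the first enzyme of transsulfuration, was lower (-1.18, SE 0.168, edgeR adjusted p = 0.000876), with 10.6 to 24.6 CPM against 28.8 to 47.7 CPM. All 10 NRF2 targets were below 0 in the H3.3 lines, with a median of -0.80 against -0.01 over all genes. Of them *Nqo1* (-1.001), *Slc48a1* (-1.09) and *Osgin1* (-3.47) were called lower. *Nqo1* lay at the 2-fold threshold: it was not called with TMM factors (-0.991), library size alone (-0.943) or no filter (-0.999), and of 10 fits without 1 library it was called in 5. It was not called without *Daxx*-/- replicate 1, *Daxx*-/-;WT replicate 1, H3.3 KO replicate 2, H3.3 KO;WT replicate 2 or mutant replicate 2 (-0.98 to -0.86). *Slc48a1* was called in 9 of 10 (-0.99 without *Daxx*-/- replicate 2). *Osgin1* was low throughout, at 0 to 3.60 CPM. Of the p53 targets *Cdkn1a* (-1.28) and *Btg2* (-1.08) were called lower, *Btg2* not without *Daxx*-/- replicate 2 (-0.78).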

How the data were processed

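PolyA RNA-Seq libraries of 5 mESC lines, 2 each, were assigned to lines by their titles. The submitters' processing notes name Bowtie, RSEM and mm9; versions and the annotation are not given in the sources used here. The deposited values, which the authors named TPM, were taken as RSEM expected counts per gene without normalization. Their totals per library are 15463625 to 21396585, and 61.4% to 67.6% of a library's values are whole numbers, zeros included. The library kit does not mark strand, so overlapping genes on opposite strands cannot be told apart. In GENCODE, *Atf3*, *Psat1*, *Sesn2* and *Slc7a11* overlap small genes or pseudogenes that the table does not list.

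Expected counts were rounded and fitted with edgeR (version 4.0.16, R version 4.3.3) over genes at 1 CPM or more in 2 or more libraries, all 10 libraries in one quasi-likelihood fit with median-of-ratios factors and 5 residual degrees of freedom. Benjamini-Hochberg adjustment was over all 13201 genes. An SE is the absolute log2 fold change over the root of edgeR's F. The study used EBSeq, which was not run here. The scripts were tested on simulated counts for the DAXX rescue, with the spread of each gene taken from the trend over expression level. Of 66 genes with a true log2 change of 1, which is the fold threshold, 25 were called. Of 72 genes with a change of 2 it was 59, and of 12786 unchanged genes it was 2.

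Alternatives were TMM factors, library size alone, no filter, DESeq2 (version 1.42.0), only the libraries of a comparison, a replicate block, no fold threshold, and each library left out. The 10 genes and the lists were chosen with earlier results of these data known. Outside the set, *Atf4* and the eIF2α kinases are named, as well as listed genes that were called or, where none was, the gene of the list with the largest change, and the 5 genes most like the mean of the set. No list was tested as a set. Replicates are called biological by the study; if they share a culture, p-values measure a smaller spread. Promoter sequences are RefSeq's (GRCm38.p6), with all 10 genes matched by symbol, and were not read from the build of the counts.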

Additional observations from a re-analysis of the deposited data

How the results depend on the processing

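The number of the 10 genes called changed by over 1.5 times in 3 of the comparisons. After DAXX rescue (1 called) it was 0 with only the libraries of the comparison, 2 with the replicate block (*Atf3* and *Ddit4*) and 0 to 3 with 1 library left out. After L126A-L130A rescue (1 called) it was 3 with DESeq2 (*Atf3*, *Chac1* and *Trib3*), 0 with only the libraries of the comparison, 2 with the replicate block (*Atf3* and *Trib3*) and 0 to 3 with 1 library left out. For the difference between DAXX and WT H3.3 rescue (0 called) it was 1 with DESeq2 (*Atf3*) and 0 in every fit without 1 library. It was 0 in every setting for WT H3.3 rescue and between the mutant and WT H3.3 lines, and 3 to 5 for the H3.3 against the *Daxx* lines (4 called). Fits of only a comparison's own libraries hold fewer samples, and the cause of the other changes was not tested. Replicate numbers are not stated to pair libraries: deviations of same-numbered libraries correlated above 0.1 in 7 of 10 pairs of lines (-0.07 to 0.55), so the block is given as an alternative. A line left with 1 library was assumed to vary like the others. No value past the threshold changed direction; *Ddit3*, not called after DAXX rescue, did (1.08 without *Daxx*-/- replicate 2). With 2 libraries a line, differences the size of the replicate spread could not be resolved.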
